A study of Mus musculus with 131 samples.

Results

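Liver cells switch off a group of fetal genes after birth, and 8 genes of that switch were followed through the study's expression, methylation and chromatin files: Afp, Gpc3, Zhx2, Zbtb20, Lin28b, Igf2bp3, Spink3 and Cd24a. They were picked by gene name, and all 8 are among the 24397 genes of the expression table. Methylation tiles and peaks were taken inside the coordinates of each gene and 5 kb on each side. Of the 8 genes, 7 passed the filter on low values (a mean of at least 1 FPKM, the read count scaled to gene length and library depth, in 1 condition or more) and were tested beside 11166 genes in all. Lin28b did not pass, and the filter admits Afp, Gpc3, Igf2bp3, Spink3 and Cd24a only through the young animals in which they are high.

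The study asked how DNA methylation that is lost in mouse liver after birth bears on maturation. All animals were C57Bl, and expression was measured in hepatocytes sorted as CD45-negative cells. WT mice were not injected, and their libraries used here numbered 1 for the age of 1 week (of 2 in the labels), 3 for that of 3 weeks and 3 for that of 15 weeks. Injected controls were labelled WT with CRE and were taken at 15 weeks after injection at 1 day (3 libraries) or at 3 weeks (3 libraries). DKO mice carried floxed Tet2 and Tet3 (Tet2 F/Tet3 F) and received an AAV8 virus with Cre under the hepatocyte-specific Tbg promoter at 1 day (3 libraries) or at 3 weeks (2 libraries used of 3 in the labels), and were also taken at 15 weeks. Deletion is thus limited to hepatocytes reached by the virus and begins after birth. The libraries imply between 25.8 M and 36.2 M reads each. For methylation, whole genome bisulfite sequencing (WGBS) gave 1 library each of newborn WT (labelled 1 week), uninjected adult WT at 15 weeks and DKO deleted at 1 day and taken at 15 weeks. Reduced representation bisulfite sequencing (RRBS) was used for 2 DKO mice (of 5 in the labels) and 3 controls (of 4) for each time of injection, those whose table column could be assigned. Other RRBS libraries used were 2 of WT hepatocytes at 3 weeks (of 4), 2 of hepatocytes of 1 week kept in culture (of 8), 2 of insulin receptor knockout (InsR KO) hepatocytes (of 3), and 1 each of fat at 25 weeks and neutrophils at 36 weeks from WT. By the paper the InsR KO mice received the same virus soon after birth and were compared with adult WT. Their labels give no age.

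Afp encodes alpha-fetoprotein, the main serum protein of the fetus, made by fetal liver and yolk sac and shut off around birth. Zhx2 and Zbtb20 encode repressors that act on Afp in adult liver, and Zhx2 is also known for repression of Gpc3, H19 and Lpl. Lin28b and Igf2bp3 encode RNA-binding proteins of fetal cells, Gpc3 a cell surface glypican, Spink3 a secreted trypsin inhibitor, and Cd24a a surface protein of progenitor cells.

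Several library facts bear on what follows. Xist, the RNA of the inactive X chromosome, was at 48 to 77.1 FPKM in the 3 WT libraries of 3 weeks and at 88.1 FPKM in replicate 3 of the controls injected at 3 weeks, with the Y-linked gene Ddx3y at 0.00764 FPKM or less in these 4, while every other library had Ddx3y at 9.84 FPKM or more. The labels give no sex. Alb, the albumin gene, is listed at 0 in all 18 libraries, so it could not serve as a marker, and the summed level of the hepatocyte markers was 9290 to 16100 FPKM throughout. Tet2 was at 4.08, 2.82 and 3.16 FPKM in the DKO of 1 day and at 2.13, 1.63 and 0.89 FPKM in their controls (log2 difference 0.79, limma adjusted p = 0.0173). It was 0.59 without replicate 3 of the controls (adjusted p = 0.0962) and 0.67 without replicate 1 of the DKO (adjusted p = 0.0819), and passed in 8 of 11 alternatives. Tet3 was at 2.78, 1.74 and 2.65 FPKM against 2.11, 2.55 and 1.68 FPKM. With injection at 3 weeks, Tet2 and Tet3 summed to 2.39 to 3.51 FPKM in the DKO and to 4.98 to 5.43 in the controls. A value over the whole gene cannot show the loss of part of a floxed gene, so DKO is used as labelled.

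The fetal genes lay far above their adult level in the newborn library, and the DKO of 1 day did not hold those levels. At 1 week Afp was at 8898 FPKM, Spink3 at 41.2, Gpc3 at 164, Cd24a at 11.8, Igf2bp3 at 7.67 and Lin28b at 0.344 FPKM. In the DKO of 1 day the mean FPKM amounted to 0.00295% of the newborn value for Afp, 0.0708% for Gpc3, 0.458% for Cd24a, 0.58% for Lin28b, 0.866% for Igf2bp3 and 1.22% for Spink3. The repressors stood the other way round, at 198% of the newborn FPKM for Zhx2 and 271% for Zbtb20, against 330% and 491% in the injected controls. The newborn end of these ratios is 1 library with no replicate check.

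**Figure D1:**
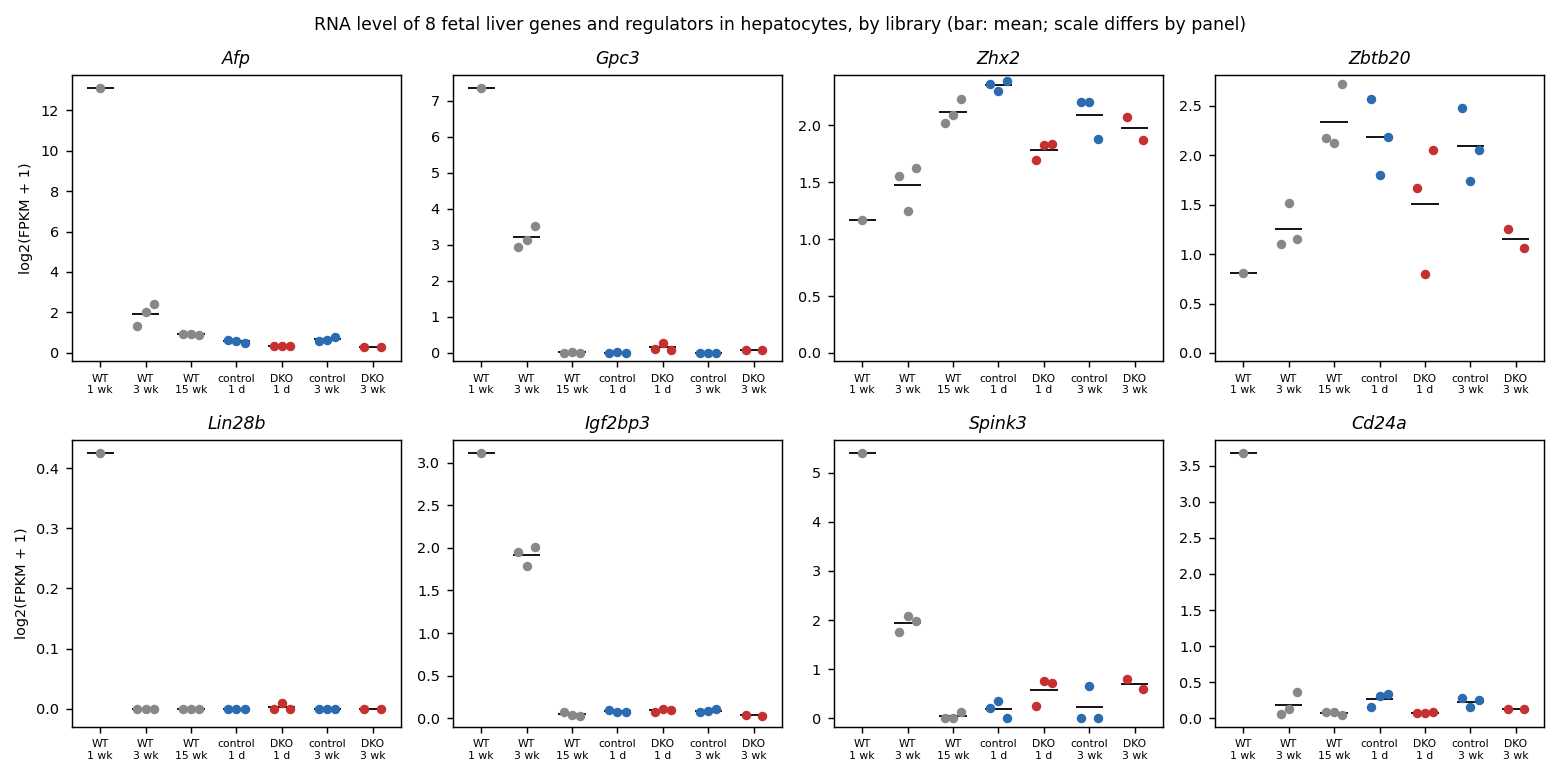
Each panel shows 1 gene, with log2(FPKM + 1) on the y axis (the scale differs by panel) and the 7 conditions on the x axis; each point is 1 library and each bar the mean of a condition. WT libraries are grey, injected controls blue and DKO red, and 1 d and 3 wk under controls and DKO are times of injection. The DKO points of Afp, Gpc3, Lin28b, Igf2bp3, Spink3 and Cd24a lie near the adult level, and those of Zhx2 at 1 day lie below the 3 controls.

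By the rule used for the single newborn library (every 15 week WT library at least 1 log2 unit away in 1 direction), 5 of the 7 tested genes were higher at 1 week (Afp, Gpc3, Igf2bp3, Spink3 and Cd24a) and 1, Zbtb20, was lower. Among all tested genes 8.62% were higher and 5.74% lower by that rule. The 5 genes entered the tested set through the young animals, which fixes their direction, so nothing is read from their count. Zhx2 was 0.95 log2 units lower at 1 week and did not meet the rule, but met it with a pseudocount of 0.1 FPKM (-1.36) and with a limit of 0.5 log2 units. In bulk RNA, fewer cells of a type and less RNA per cell cannot be told apart. Marker lists of other cells were also high in the newborn library: the erythroid list summed to 2420 FPKM against 6.77 to 72 elsewhere, the cholangiocyte and progenitor list to 121 against 5.24 to 21.2, and the list of dividing cells to 44 against 0.856 to 9.59. Their part in the newborn values was not tested.

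Afp lies at chr5:90919740-90937933 (mm9, plus strand, 18.2 kb). Its FPKM in WT was 8898 at 1 week, then 1.5, 3.00 and 4.33 at 3 weeks and 0.925, 0.896 and 0.839 at 15 weeks. The 3 ages did not overlap, and the newborn value was about 10000 times the mean at 15 weeks. Controls injected at 1 day had 0.540, 0.507 and 0.404 FPKM and their DKO 0.274, 0.268 and 0.245. With injection at 3 weeks the controls had 0.491, 0.541 and 0.731 FPKM and the DKO 0.242 and 0.224. At both times every DKO library was below every control, opposite to the direction of the newborn. The share of all genes whose groups separate in this way was not counted, so nothing is read from such separations here or below. The mean was 0.262 ± 0.0151 FPKM (SD, n = 3) in the DKO of 1 day and 0.484 ± 0.0709 (SD, n = 3) in the controls, a ratio of 0.542.

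On the log2(FPKM + 1) scale, which understates changes of low genes, these were differences of -0.23 (SE 0.19, limma adjusted p = 0.406) at 1 day and -0.36 (SE 0.21, adjusted p = 0.287) at 3 weeks. Neither passed the threshold. In a fit of the 2 conditions alone, the difference at 1 day was the same size with adjusted p = 0.0276, and over 11 alternatives the adjusted p ran from 0.0276 to 0.559. From the largest mean to the smallest, the order for Afp was WT at 1, 3 and 15 weeks, controls of 3 weeks, controls of 1 day, DKO of 1 day and DKO of 3 weeks, in which the 2 control groups overlapped.

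Afp was 1.00 log2 units higher (SE 0.19, adjusted p = 0.00111) at 3 weeks than at 15 weeks. Afp passed the filter only through the young animals, which fixes this direction, so nothing is read from the p-value. The genes most like Afp over the 18 libraries, by Pearson's r of log2(FPKM + 1), were Miox at 0.9962, 2610018G03Rik at 0.9961 and Cdc7 at 0.9948. The newborn library lies far from the others in Afp and weighs on each such r.

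Gpc3, the X-linked glypican (chrX:49625604-49967151, minus strand), was at 164 FPKM at 1 week, at 6.74, 7.76 and 10.6 FPKM at 3 weeks, and at 0, 0.0261 and 0 FPKM at 15 weeks. Controls were at 0, 0.0150 and 0 FPKM after injection at 1 day and listed at 0 in all 3 libraries after injection at 3 weeks. Every DKO library had a value above 0: 0.0787, 0.202 and 0.0663 FPKM for injection at 1 day, 0.0556 and 0.0514 for injection at 3 weeks. All 5 DKO libraries were thus above all 6 injected controls and all 3 WT libraries of 15 weeks, a separation whose share over all genes was not counted. Converted with the value of 1 read in each library, the DKO values amount to about 5, 14 and 5 reads at 1 day and 4 and 3 at 3 weeks, against 0, 1 and 0 and 0, 0 and 0 in the controls.

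The difference for Gpc3 at 1 day was 0.15 log2 units (SE 0.11, adjusted p = 0.355) and did not pass the test with a pseudocount of 1 FPKM. With a pseudocount of 0.1 FPKM it was 0.99 with adjusted p = 0.00756. Over the 11 alternatives the adjusted p ran from 0.00756 to 0.627, and that was the 1 alternative past the threshold. At 3 weeks the difference was 0.08 (adjusted p = 0.732), and between the 2 times of deletion it did not pass either (0.07, adjusted p = 0.793). A transcript on the other strand, A630012P03Rik, overlaps the start of Gpc3, and reads of the pair could not be separated where the counting ignores strand.

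In the WT series Gpc3 was 3.19 log2 units higher at 3 weeks than at 15 weeks (SE 0.11, adjusted p = 1.42e-10). This direction too was fixed by the filter, and nothing is read from the p-value. The genes most like Gpc3 over the 18 libraries were Igf2 at r = 0.9992, Cdkn1c at 0.9982 and Calml4 at 0.9975. Igf2, the fetal growth factor, was at 1020 FPKM at 1 week and at 0.134, 0.695 and 0.129 FPKM in the DKO of 1 day, against 0.00794, 0 and 0 FPKM in the controls. Its difference did not pass at 1 day (0.37, SE 0.15, limma adjusted p = 0.0996) or at 3 weeks (0.08, adjusted p = 0.815).

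Zhx2 (chr15:57526222-57671387, plus strand, 145 kb), a zinc finger and homeobox repressor, rose with age. It was at 1.24 FPKM at 1 week, at 1.95, 1.37 and 2.09 at 3 weeks, and at 3.07, 3.27 and 3.70 at 15 weeks. The 3 ages did not overlap, and the 3 week libraries were 0.64 log2 units lower than those of 15 weeks (SE 0.12, limma adjusted p = 0.00103). Controls injected at 1 day had 4.14, 3.94 and 4.23 FPKM and the DKO 2.24, 2.55 and 2.57. Every DKO library was below every control and above the libraries of 1 and 3 weeks.

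The difference at 1 day was -0.56 log2 units (SE 0.12, adjusted p = 0.00629), a ratio of means of 0.598. Zhx2 was the 1 gene of the 7 that passed in this comparison. Among all tested genes 4.33% rose and 15.6% fell, so 1 lower gene of 7 is close to that background. The test held in all 11 alternatives, with differences of -0.72 to -0.46 and adjusted p of 0.00715 to 0.033. The median of all genes was -0.11 here and 0 after quantile normalization, under which 1308 genes rose and 1491 fell instead of 483 and 1745. Among the markers of other cells, the erythroid list summed to 14 to 17.3 FPKM in the DKO of 1 day against 54.8 to 72 in the controls, which came from Alas2, a heme synthesis enzyme, at 10.8, 13.3 and 13.7 against 50.9, 53.3 and 70.5 FPKM. It was the 1 erythroid gene of 9 tested that passed (-2.11, adjusted p = 0.0134), and the globin genes Hba-a1 and Hbb-b1 had differences of 0.40 and 0.24 that did not. The leukocyte and Kupffer cell list summed to 1.91 to 3.9 against 4.67 to 8.16, with Lyz2 as the 1 gene of 4 that passed (-1.01, adjusted p = 0.031). The cholangiocyte and progenitor, endothelial and stellate lists overlapped between these groups. Their part in the differences at 1 day was not tested.

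With deletion at 3 weeks the Zhx2 values were 3.21 and 2.66 FPKM in the DKO and 3.62, 3.60 and 2.68 in the controls, which overlapped (difference -0.12, SE 0.13, adjusted p = 0.583). Without replicate 3 of the controls, which carried Xist, the difference was -0.23 (adjusted p = 0.338). None of the 7 genes passed at 3 weeks (4 reached an unadjusted p under 0.05 at 1 day and 2 at 3 weeks, as did 34.5% and 25.7% of all genes), where 0.905% of all genes rose and 4.34% fell, or 430 and 457 genes after quantile normalization instead of 101 and 485. The effect at 1 day minus the effect at 3 weeks was -0.44 for Zhx2 (SE 0.18, adjusted p = 0.119), so a difference between the times was not shown. After quantile normalization it was -0.52 with adjusted p = 0.0426, within a range of 0.0426 to 0.272 over 15 alternatives. In this test 2.33% of all genes had a positive and 3.04% a negative difference, and none of the 7.

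On the way from the controls to the newborn on the log2(FPKM + 1) scale, Zhx2 in the DKO of 1 day lay at 47.6% of the distance and Zbtb20 at 49.3%. The fetal genes lay at 2.02% for Gpc3, 7.41% for Spink3, 0.408% for Igf2bp3, -1.85% for Afp and -5.59% for Cd24a, where a negative share is a value on the far side of the controls. These shares describe means, and apart from that of Zhx2 the differences behind them did not pass the test.

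Zbtb20 (chr16:42907758-43619236, plus strand, 711 kb), the zinc finger repressor named for its action on Afp, was at 0.746 FPKM at 1 week, at 1.15, 1.86 and 1.22 at 3 weeks and at 3.50, 3.36 and 5.6 at 15 weeks. The 15 week values lay above all younger ones. Controls of 1 day were at 4.95, 2.49 and 3.56 FPKM and the DKO at 2.17, 0.738 and 3.16, which overlapped. Controls of 3 weeks were at 4.57, 2.34 and 3.14 FPKM and the DKO at 1.39 and 1.09, below all 3 controls. The differences were -0.68 (SE 0.30, adjusted p = 0.121) and -0.93 (SE 0.33, adjusted p = 0.104), and neither passed in any of their 11 and 10 alternatives.

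Zbtb20 was 1.08 log2 units lower at 3 weeks than at 15 weeks (SE 0.30, adjusted p = 0.013), and without replicate 3 of the 15 week WT the difference was -0.89 with adjusted p = 0.055. The gene overlaps several annotated transcripts, among them Gm9968 and Gm15713 on the other strand.

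Igf2bp3 (chr6:49035217-49164953, minus strand), which binds and stabilizes fetal mRNAs, was at 7.67 FPKM at 1 week and at 2.86, 2.45 and 3.02 at 3 weeks. At 15 weeks it was at 0.0531, 0.0270 and 0.0169 FPKM in WT, 0.0674, 0.0543 and 0.05 in controls of 1 day and 0.0487, 0.0820 and 0.0684 in their DKO. All adult groups of this gene thus lay in 1 low range, and the DKO of 1 day overlapped the controls (difference 0.01, SE 0.052, adjusted p = 0.907). In the DKO of 3 weeks it was at 0.0287 and 0.0177 FPKM, below the 0.0525 to 0.0769 of the controls, with adjusted p = 0.589. At 3 weeks of age it was 1.87 log2 units higher than at 15 weeks (SE 0.052, adjusted p = 2.11e-11). As for Afp, the filter fixes this direction and nothing is read from the p-value.

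Spink3 (chr18:43887723-43896891, minus strand) was at 41.2 FPKM at 1 week, 2.39, 3.21 and 2.95 at 3 weeks and 0, 0 and 0.0977 at 15 weeks. The DKO had 0.188, 0.690 and 0.633 FPKM for deletion at 1 day and 0.746 and 0.511 for deletion at 3 weeks, against 0.156, 0.269 and 0, and 0, 0.578 and 0, in the controls. The groups overlapped at both times. The differences were 0.39 (SE 0.18, adjusted p = 0.135) and 0.48 (SE 0.20, adjusted p = 0.148). Without replicate 2 of the controls of 3 weeks, the library at 0.578 FPKM, the second was 0.70 with adjusted p = 0.0362, and over its 10 alternatives the adjusted p ran from 0.0362 to 0.426. At 3 weeks of age Spink3 was 1.89 log2 units higher than at 15 weeks (SE 0.18, adjusted p = 2.78e-06). Again the filter fixes this direction, and nothing is read from the p-value.

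Cd24a (chr10:43298975-43304071, plus strand) was at 11.8 FPKM at 1 week and already low at 3 weeks, with 0.0457, 0.0894 and 0.280 FPKM, which overlapped the 0.0647, 0.0656 and 0.0309 FPKM of 15 weeks (difference 0.11, SE 0.069, adjusted p = 0.262). Controls of 1 day had 0.115, 0.236 and 0.264 FPKM and the DKO 0.0494, 0.0545 and 0.0583, all below the controls and within the range of WT libraries. The difference was -0.19 (SE 0.069, adjusted p = 0.067). It passed in 3 of 11 alternatives, at -0.95 with a pseudocount of 0.1 FPKM (adjusted p = 0.039), at -0.22 after quantile normalization (adjusted p = 0.0221) and at -0.25 without replicate 1 of the controls (adjusted p = 0.043), in a range of 0.0221 to 0.245. The genes most like Cd24a were Stfa2l1 at r = 0.9944, Cldn7 at 0.994 and 2210010C04Rik at 0.9937, and the newborn library weighs on each r.

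Lin28b (chr10:45096425-45190007, minus strand), which blocks maturation of let-7 microRNAs, was at 0.344 FPKM at 1 week, about 48 reads. It was listed at 0 in every other library but replicate 2 of the DKO of 1 day, at 0.00599 FPKM, about 1 read. No test was made.

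In the WT series as a whole, 4 of the 7 tested genes were higher at 3 than at 15 weeks (Afp, Gpc3, Igf2bp3 and Spink3) and 2 lower (Zhx2 and Zbtb20), against 9.32% and 24% of all genes. The 4 higher genes again entered through the young animals, and nothing is read from their count or their p-values. After quantile normalization the counts over all genes were 2151 higher and 1916 lower instead of 1041 and 2678, the median of all genes moved from -0.15 to 0.01, and the 6 genes kept their directions. The 3 week libraries also differed from those of 15 weeks in Xist and Ddx3y, so age and that difference cannot be told apart. Their list of dividing cells summed to 6.23 to 9.59 FPKM against 0.856 to 1.31 at 15 weeks, the endothelial list to 7.25 to 12.3 against 1.14 to 3, and the leukocyte and Kupffer cell list to 4.55 to 11.9 against 1.31 to 1.87. The part of these cells was not tested. Both WT contrasts use the same 15 week libraries.

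Between the injected controls of 1 day and uninjected WT of 15 weeks none of the 7 genes passed the test, and 0% of all genes rose and 0% fell by limma. At an unadjusted p under 0.05 there were 855 genes, with Cd24a (difference 0.19, adjusted p = 0.463) as the 1 of the 7. Quantile normalization gave 14 higher and 13 lower genes. Afp was lower in all 3 controls than in all 3 WT libraries (difference -0.35, adjusted p = 0.72), and Zhx2 higher (0.23, adjusted p = 0.693).

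The other genes known to be regulated by Zhx2 moved in the DKO of 1 day. H19, the imprinted noncoding RNA of fetal liver, was at 2.49, 4.81 and 3.32 FPKM against 0, 0.039 and 0.014 in the controls, a rise of 2.13 log2 units (SE 0.17, adjusted p = 3.3e-06), with 3180 FPKM in the newborn. Lpl, lipoprotein lipase, was at 22.1, 23.4 and 20.4 FPKM against 2.3, 1.61 and 3.72, a rise of 2.74 (SE 0.31, adjusted p = 5.76e-05). Neither gene's groups overlapped, and both passed in all 11 alternatives.

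Elovl3, a fatty acid elongase, was at 23.9, 12.2 and 10.3 FPKM against 182, 190 and 176, a fall of 3.57 log2 units (SE 0.96, adjusted p = 0.0202). It did not pass in 3 of 11 alternatives, at adjusted p = 0.0501 without replicate 1 and 0.068 without replicate 3 of the controls and 0.0655 without replicate 3 of the DKO, with differences of -3.57, -3.60 and -3.34. So 2 of the 3 genes of that list rose and 1 fell, against 4.33% and 15.6% of all genes. Their median was 2.13 against -0.11 over all genes. With deletion at 3 weeks none of the 3 passed the test. Whether these changes follow from the lower Zhx2 was not tested. H19 stands in this list and in that of imprinted genes. This list and the lists below were chosen with earlier results of these data known, so nothing is read from their counts or medians.

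Of 12 imprinted genes of fetal growth 10 were tested, 2 rose at 1 day (H19 and Peg3) and none fell, with a median of 0.16, against 4.33% of all genes that rose and 15.6% that fell. Peg3 was at 4.39, 2.33 and 4.55 FPKM against 1.04, 1.41 and 0.466, a rise of 1.26 (SE 0.27, adjusted p = 0.00724). At 3 weeks none rose and Meg3 fell. Meg3 was at 0.362 and 0.258 FPKM against 2.77, 4.44 and 18.3, a difference of -2.49 (SE 0.49, adjusted p = 0.0135), which was -2.54 (adjusted p = 0.055) and -2.43 (adjusted p = 0.147) without replicates 1 and 2 of the DKO. In the WT series 6 of the 10 were higher at 3 than at 15 weeks, against 9.32% of all genes, and 8 at 1 week by the rule of 1 log2 unit, against 8.62%. Some of these, such as Igf2 and Cdkn1c, are low in adults and entered the tested set through the young animals. That fixes their direction, so nothing is read from the counts of the WT series.

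In the Lin28 and let-7 list 5 of 10 genes were tested, and at 1 day Myc rose and Igf2bp2 fell. Myc was at 27.8, 56 and 24.1 FPKM against 2.1, 9.82 and 2.62, a rise of 2.80 (SE 0.58, adjusted p = 0.00579). Igf2bp2 was at 0.145, 0.225 and 0.191 FPKM against 0.286, 0.589 and 0.372, and its difference of -0.25 (adjusted p = 0.0306) passed in 6 of 11 alternatives (0.013 to 0.114). It was -0.16 without replicate 2 and -0.27 without replicate 3 of the controls, and -0.22 without replicate 1 and -0.25 without replicate 3 of the DKO, none of them past the threshold. No gene of the list passed at 3 weeks.

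Other glypicans were measured as a check on Gpc3, and 3 of 5 were tested. Gpc1 was at 0.628, 0.403 and 0.411 FPKM in the DKO of 1 day against 5.41, 5.7 and 5.02, a fall of 2.11 (SE 0.24, adjusted p = 6.06e-05). It was at 0.322 FPKM in the newborn, so the DKO lay close to it. Gpc6 rose by 0.39 (SE 0.084, adjusted p = 0.00664), from 0.0302, 0.0348 and 0.0214 to 0.401, 0.277 and 0.382 FPKM. Both passed in all 11 alternatives.

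Among 13 transcription factors known to regulate Afp none rose and 5 fell at 1 day, among them Cebpb, Nr5a2, Hnf4a and Zhx1, with a median of -0.27 against -0.11 over all genes, of which 4.33% rose and 15.6% fell. Cebpb was at 53.9, 42.2 and 38.8 FPKM against 75.6, 96.5 and 79.1 (difference -0.89, SE 0.16, adjusted p = 0.00281), and Nr5a2, an orphan nuclear receptor, at 6.14, 6.02 and 7.52 against 11.7, 10.9 and 11.5 (-0.72, SE 0.16, adjusted p = 0.00926). Both passed in all 11 alternatives. Zhx1 (-0.52) passed in 10 and Hnf4a (-0.64) in 5, with adjusted p of 0.00993 to 0.0704 and 0.0156 to 0.161. Zhx1 did not pass without replicate 3 of the controls (-0.45), and Hnf4a without replicates 2 or 3 of the controls or 1 or 2 of the DKO (-0.63 to -0.47).

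At 3 weeks 3 of the 13 fell, against 4.34% of all genes, among them Nr5a2 by 0.69 (adjusted p = 0.0452), which passed in 2 of 10 alternatives. Leaving out any 1 of the 5 libraries ended its call (-0.78 to -0.59). Of the albumin gene cluster beside Afp, 2 of 3 genes were tested and none passed at either time.

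The promoters of these genes differ in CpG content. Afp has 3 CpG in the 300 bases from 250 before to 50 after its start, Zbtb20 2 and Spink3 0 at the start the table gives, while Gpc3 has 30, Igf2bp3 25, Cd24a 34, Zhx2 13 and Lin28b 8. CpG in capitals marks the possible methylation sites in the windows of Afp and Igf2bp3, shown because methylation was measured around them (mm9, chr5:90919490-90919789 on the plus strand and chr6:49164904-49165203 on the minus strand, as in the promoter table of RefSeq).
Afp promoter: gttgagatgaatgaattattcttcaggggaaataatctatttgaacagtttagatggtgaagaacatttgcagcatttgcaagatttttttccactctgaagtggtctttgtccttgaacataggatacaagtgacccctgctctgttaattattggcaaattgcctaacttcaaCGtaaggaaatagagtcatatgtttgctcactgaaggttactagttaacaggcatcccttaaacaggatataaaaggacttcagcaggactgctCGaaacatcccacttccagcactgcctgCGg
Igf2bp3 promoter: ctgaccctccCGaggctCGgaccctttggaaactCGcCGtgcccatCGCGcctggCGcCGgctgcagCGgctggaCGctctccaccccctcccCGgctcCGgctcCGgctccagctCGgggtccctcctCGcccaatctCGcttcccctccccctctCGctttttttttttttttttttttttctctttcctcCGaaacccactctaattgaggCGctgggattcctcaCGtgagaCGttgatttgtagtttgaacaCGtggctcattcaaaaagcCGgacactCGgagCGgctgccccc

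Within 1 kb of the start, WGBS gave a mean methylation level of 34.5% in the newborn, 60.7% in the adult and 63.2% in the DKO for Afp (9 tiles of 200 bases). The CpG-rich starts were low in all 3 libraries: 3.0%, 1.0% and 1.23% for Zhx2, 0.825%, 1.98% and 2.2% for Igf2bp3, 1.3%, 3.46% and 4.04% for Cd24a. Lin28b was at 8.99%, 12.6% and 13.9%, and Spink3 at 37.5%, 59.0% and 58.2%. These are single libraries whose table gives no coverage per tile, so their counting error is unknown and no test was made.

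Methylation across Afp was higher in the adult than in the newborn, and the median of the DKO was close to that of the adult. Its 115 tiles had a median of 44.8% in the newborn, 78.9% in the adult and 79.4% in the DKO. Of them 29 (25.2%) were at least 35 points higher in the adult and none at least 35 points lower, against 0.261% and 1.63% of the 8049849 tiles with a value in all 3 libraries. In the DKO 4 tiles were at least 35 points above the adult, 1 in an exon and 3 within 5 kb downstream, where the mean was 43.0% in the newborn, 61.3% in the adult and 75.7% in the DKO. The tile with the largest gap, chr5:90937401-90937600 in an exon, was at 17.6% in the newborn, 18.8% in the adult and 68.0% in the DKO.

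In the repressor genes some tiles went the other way, while the medians moved little. The median was 90.5% in the newborn and 88.3% in the adult for Zhx2, and 91.7% and 87.1% for Zbtb20. Over all tiles it was 84.9% and 82.5%. Of 659 tiles in Zhx2 29 (4.4%) were at least 35 points lower in the adult than in the newborn, and of 2376 in Zbtb20 188 (7.91%). Igf2bp3 had 11 of 548 (2.01%), close to the 1.63% of all tiles, and Afp, Lin28b (314 tiles), Spink3 (59) and Cd24a (69) had none. Over the 7 genes on autosomes this made 228 of 4140 tiles, or 5.51%, against 1.63% of all tiles. Most of the 228 were the 188 of Zbtb20. All 29 tiles of Zhx2 and all 11 of Igf2bp3 were intronic, as were 178 of the 188 of Zbtb20, and Gpc3 on the X chromosome was not in the table.

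In the DKO these tiles were mostly high. Of the 228 tiles, 26 of 29 (89.7%) in Zhx2, 165 of 188 (87.8%) in Zbtb20 and 10 of 11 (90.9%) in Igf2bp3 were at least 35 points higher in the DKO than in the adult, or 88.2% together against 70.6% of such tiles across the genome. Regardless of age, 33 tiles of Zhx2, 222 of Zbtb20, 25 of Igf2bp3, 4 of Afp and 1 of Lin28b were that much higher in the DKO, 6.88% of all 4140 against 1.98% of the background. Both gaps are measured from the same adult library, so an error in that library enters both.

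**Figure D2:**
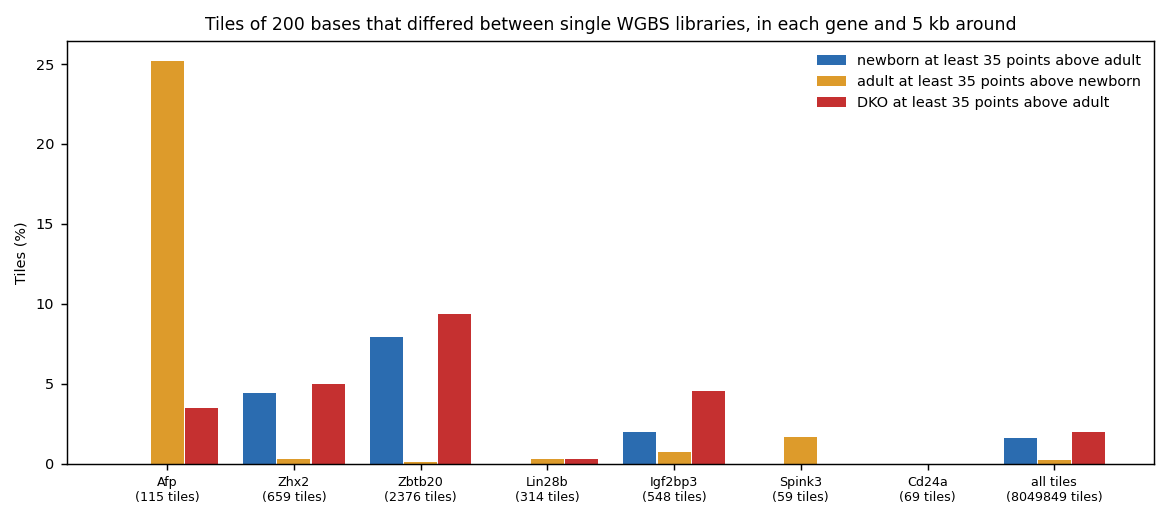
Bars give the share of 200 base tiles (%, y axis from 0) in each gene and 5 kb around it (x axis, with the number of tiles) that differed by at least 35 points between single WGBS libraries: newborn above adult (blue), adult above newborn (orange) and DKO above adult (red). Afp has the high orange bar of 25.2%. Zhx2, Zbtb20 and Igf2bp3 have blue and red bars above those of all tiles, and Afp a red bar above it.

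The tile of Zhx2 with the largest gap between newborn and adult, chr15:57541601-57541800 in an intron, was at 97.7% in the newborn, 6.9% in the adult and 76.2% in the DKO. In Zbtb20 the corresponding tile, chr16:43237801-43238000, was at 97.6%, 3.08% and 75.4%. The tile of Zbtb20 with the largest gap between DKO and adult was at 86.4%, 0% and 96.0% (intron, 482342 bases from the start). It holds a single CpG, shown in capitals, so each of its values rests on 1 site (mm9, plus strand, chr16:43390001-43390200).
Zbtb20 WGBS tile: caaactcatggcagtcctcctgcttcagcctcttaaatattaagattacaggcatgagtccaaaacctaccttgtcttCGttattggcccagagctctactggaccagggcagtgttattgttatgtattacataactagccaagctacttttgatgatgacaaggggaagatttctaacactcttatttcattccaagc
In Igf2bp3 the largest gap between DKO and adult was 81.5 points at chr6:49047801-49048000 in an intron, with 48.5% in the newborn, 2.41% in the adult and 83.9% in the DKO.

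**Figure D3:**
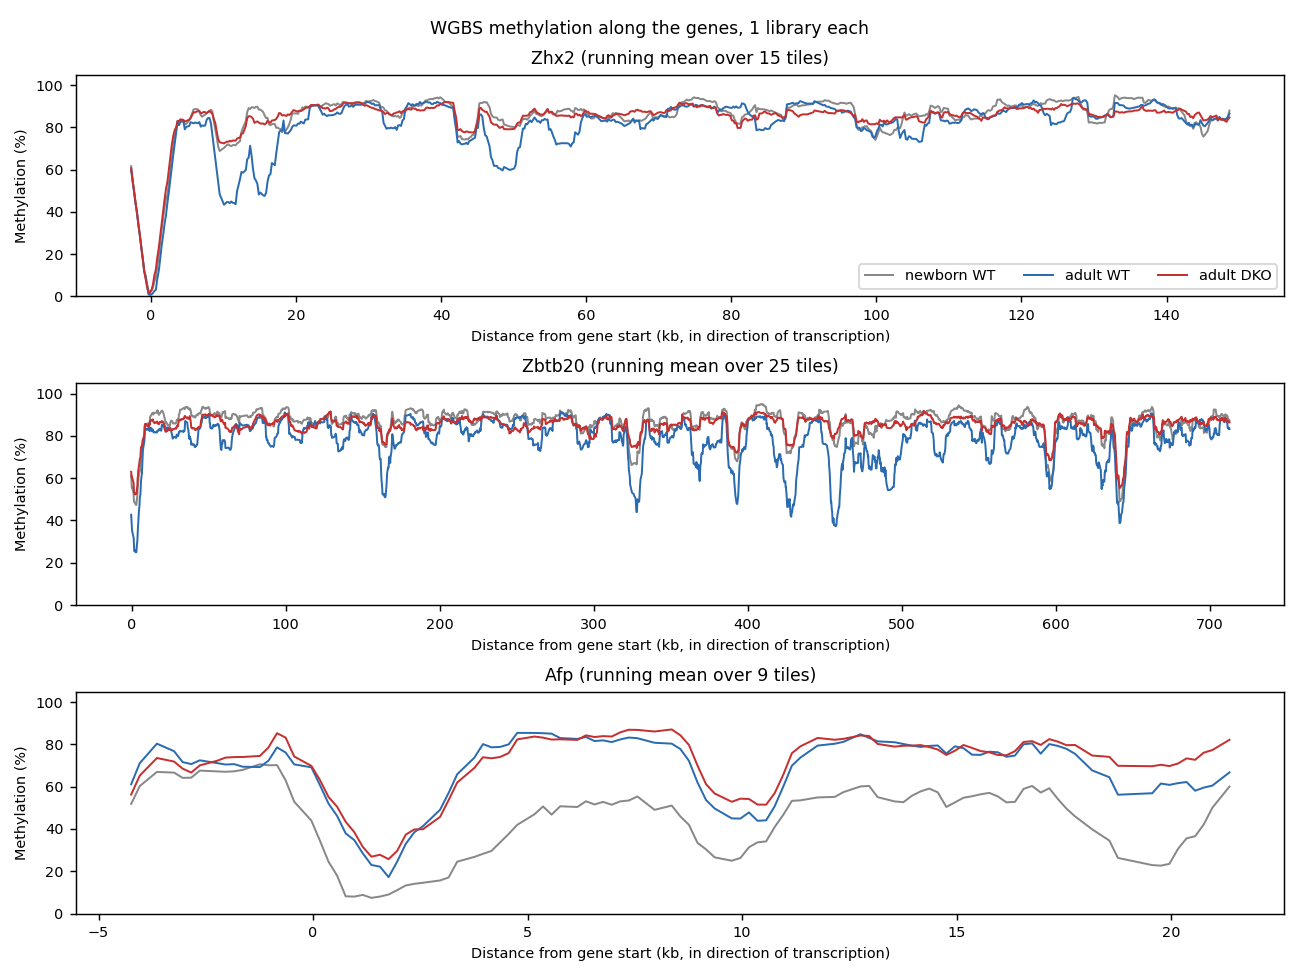
Methylation level (%, y axis) of 200 base tiles against distance from the gene start in kb (x axis) for Zhx2, Zbtb20 and Afp, as running means over 15, 25 and 9 tiles, with newborn WT in grey, adult WT in blue and adult DKO in red, 1 library each. Adult WT dips below the other lines inside Zhx2 and Zbtb20, and in Afp the newborn line runs below the others over the gene body.

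RRBS measured some of these places in replicate mice. It covered 152 tiles of 100 bases in 6 of the 8 genes at 1 day, and 2 of them (1.32%) were higher in the DKO by the test (limma adjusted p under 0.05 and at least 35 points), close to the 1.22% of all 460676 tiles, and none was lower against 0.028% of all. At 3 weeks 1 of 137 (0.73%) was higher, against 0.299% of 417310, and none lower, against 0.0204%. The RRBS table held no tile of Gpc3 or Spink3.

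Both tiles lie in introns of the repressors, 46.7 kb into Zhx2 and 489 kb into Zbtb20 (mm9, plus strand, chr15:57572901-57573000 and chr16:43397101-43397200). Each holds 3 CpG, in capitals.
Zhx2 RRBS tile: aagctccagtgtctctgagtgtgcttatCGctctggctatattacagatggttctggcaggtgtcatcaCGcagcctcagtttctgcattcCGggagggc
Zbtb20 RRBS tile: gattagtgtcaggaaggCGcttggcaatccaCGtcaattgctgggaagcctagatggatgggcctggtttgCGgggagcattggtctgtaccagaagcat
The Zhx2 tile was methylated at 17.9%, 17.9% and 26.4% in the controls of 1 day and 82.8% and 91.9% in the DKO, a difference of 66.6 points (SE 5.8, adjusted p = 0.00018). For injection at 3 weeks it was at 39%, 30.4% and 30.6% in the controls and 96.1% and 90.3% in the DKO (59.9 points, SE 5.6, adjusted p = 0.00206). The DKO mice were above all controls at both times.

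Uninjected WT mice of 3 weeks had 92.1% and 81.7% at the Zhx2 tile, and newborn hepatocytes kept in culture 94.7% and 94.9%. InsR KO hepatocytes were at 66.4% and 71.7%, fat at 88.4% and neutrophils at 98%. WGBS gave 96% in the newborn, 24.1% in the adult and 81% in the DKO, in separate libraries. The DKO values lay at 82.8% or more, above the controls and close to the mice of 3 weeks.

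The Zbtb20 tile was at 0%, 0% and 4.5% in the controls of 1 day and 100% and 74.1% in the DKO, a difference of 85.5 points (SE 12, adjusted p = 0.00476). For injection at 3 weeks it was at 2.9%, 8.33% and 10.7% against 56.8% and 91.9%, and this difference of 67 points (SE 13) had adjusted p = 0.055 and was not called. Whether the effects at the 2 times differ was not tested. At 3 weeks the WT mice had 69.1% and 59.4%, cultured newborn hepatocytes 90.5% and 88.1%, and InsR KO hepatocytes 7.41% and 41.7%. WGBS gave 88.5% in the newborn, 2.25% in the adult and 84.9% in the DKO.

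**Figure D4:**
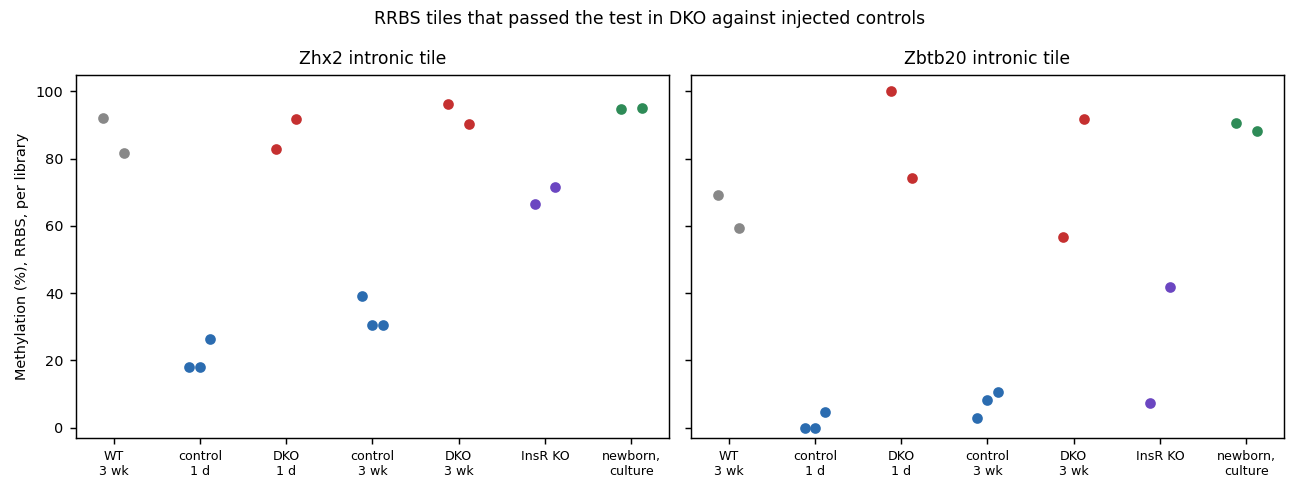
Methylation level (%, y axis) by RRBS of the Zhx2 (left) and Zbtb20 (right) intronic tiles in 7 groups of hepatocytes (x axis), each point 1 library. In both tiles the red points of the DKO lie above all blue points of the injected controls.

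Within Afp 9 RRBS tiles were tested, with a median difference of 5.18 points at 1 day, and none was called. The largest, chr5:90921901-90922000 in an intron, was at 0.287%, 0% and 0% in the controls and 26.4% and 19.4% in the DKO (22.8 points, SE 8.1, adjusted p = 0.351). Medians over the tiles were 0.0831 points in Zhx2 (56 tiles), 2.01 in Zbtb20 (31), 2.64 in Lin28b (9), 0 in Igf2bp3 (35) and 0.128 in Cd24a (12). Over the tiles with a value in all 16 hepatocyte libraries, the mean level of Zbtb20 (17 tiles) was 82.5% and 80.4% in the DKO of 1 day against 69.6%, 69.7% and 68.9% in the controls, and 83.3% and 82.6% against 72.5%, 69.4% and 73.1% at 3 weeks. That of Afp (6 tiles) was 32.4% and 30.5% against 25.3%, 24% and 23.1%, and 30.2% and 32.1% against 27.8%, 22.4% and 24.4%. That of Zhx2 (35 tiles) was 44.9% and 45.6% against 41.9%, 44% and 43.5%, and 44.7% and 45.2% against 43.9%, 44.5% and 42.1%. In Zbtb20, Afp and Zhx2 the DKO mice thus lay above all controls at both times, in Zhx2 by little. In Lin28b, Igf2bp3 and Cd24a the groups overlapped at both times. These means were not tested.

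Histone mark peaks were counted per gene, and the genes differ in length (18.2 kb for Afp, 145 kb for Zhx2 and 711 kb for Zbtb20). H3K27ac, the mark of active promoters and enhancers, gave 14 peaks over 24.7 kb in Zhx2 of WT and 12 over 17.1 kb in the DKO, and 71 over 110 kb and 71 over 141 kb in Zbtb20, but none in Gpc3, Lin28b and Cd24a of either genotype. Afp had 1 peak in each, of 19.6 tags in WT and 7.62 in the DKO, at different places (22.2 kb and -2.1 kb from the start). H3K4me1, the enhancer mark, gave 16 and 14 peaks in Zhx2, 87 and 79 in Zbtb20 and 6 and 6 in Afp. Each mark was 1 library per genotype at 15 weeks, so no difference was tested. The DKO had the deletion at 1 day, and the labels give no injection for the WT.

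Of the 228 tiles that were at least 35 points lower in the adult, 79.4% lay under an H3K4me1 peak of WT and 50.4% under an H3K27ac peak, against 27.3% and 12% of the other 3912 tiles of these genes. In the DKO the shares were 76.3% and 50%. 5hmC, the oxidized form of methylcytosine made by TET enzymes, had peaks over 17.1% of the 228 and 9.3% of the others. This was 1 library, taken as WT, whose label gives no genotype or age. By the paper its hepatocytes came from mice much younger than the adults compared here. Open chromatin peaks covered 16 and 13 of the 228 tiles in the 2 WT libraries and 5 and 16 in the 2 DKO libraries, so the genotypes overlapped.

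ATAC-Seq, which marks open chromatin, was done on 2 WT and 2 DKO libraries labelled liver and gave 76 regions at the 8 genes. Regions with a peak in both WT and no DKO library numbered 3 of the 76, against 2.97% of all 84869 regions (1 in Zhx2, 2 in Zbtb20). Regions in both DKO and no WT library numbered 8, against 5.06% of all (4 in Zbtb20 and 1 each in Afp, Zhx2, Lin28b and Igf2bp3). The libraries differed in depth, with 73.9 M and 54.2 M tags in WT and 80.9 M and 90.2 M tags in the DKO.

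Among the named regions, an intronic one of Zhx2 at 24.8 kb had 4.33 and 4.62 tags in WT and no peak in the DKO, and one 0.441 kb upstream had 7.85 and 8.86 tags in the DKO and no peak in WT. In Afp an intronic region at 10.2 kb, chr5:90929853-90930037, had peaks of 3.03 and 3.38 tags in the DKO alone. The region at the start of Gpc3 was open in all 4 libraries, with 4.06, 12.3, 14.3 and 9.09 tags (WT 1, WT 2, DKO 1, DKO 2), and so was that in the first part of Igf2bp3 with 2.91, 4.06, 11.9 and 12.1. At the latter both DKO values were above both WT values.

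HNF6, a hepatocyte transcription factor also called ONECUT1, had peaks in 38 regions at the 8 genes, 29 of them in Zbtb20. None was in both WT and no DKO library, against 0.507% of all 37274 regions, and 3 were in both DKO and no WT library, against 7.26%, all in Zbtb20. The 4 libraries held 4387, 9355, 9305 and 34665 peaks (WT 1, WT 2, DKO 1, DKO 2), so DKO 2 stood apart, and the 3 regions of Zhx2 were peaks in it alone.

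The regions found in all 4 HNF6 libraries were 4 in Zbtb20 and 1 each in Afp and Igf2bp3. That of Afp lies 10 kb into the gene in an intron, overlaps the region open in the DKO and had 5.76, 6.12, 11.6 and 31.3 tags, and that of Igf2bp3 lies 4.12 kb into its gene and had 5.76, 17.8, 18.7 and 69.2, in the order given above. Capitals mark the letters ATCGAT, the only spelling of an HNF6 site that was searched. They occur once in the Igf2bp3 region and not in the Afp region (mm9, plus strand, chr5:90929603-90929878 and chr6:49160708-49160956). Other spellings were not searched, so a region without these letters may still hold a site.
Afp HNF6 region: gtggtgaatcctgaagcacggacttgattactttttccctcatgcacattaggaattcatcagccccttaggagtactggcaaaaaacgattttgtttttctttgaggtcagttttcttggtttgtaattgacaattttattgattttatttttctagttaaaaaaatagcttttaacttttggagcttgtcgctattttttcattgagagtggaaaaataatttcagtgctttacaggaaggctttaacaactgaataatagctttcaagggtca
Igf2bp3 HNF6 region: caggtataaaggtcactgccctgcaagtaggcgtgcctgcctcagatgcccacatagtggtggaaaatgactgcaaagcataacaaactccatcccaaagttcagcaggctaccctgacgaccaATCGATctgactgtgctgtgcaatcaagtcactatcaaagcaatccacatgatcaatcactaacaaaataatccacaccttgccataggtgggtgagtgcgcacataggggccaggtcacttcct
Zbtb20 also had the HNF6 region with the highest score of its gene at chr16:43073387-43073642, with 7.36, 18.4, 11.6 and 49.9 tags.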

How the data were processed

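Expression, methylation and peak files were taken as deposited. The authors made the FPKM values with TopHat2 and Cufflinks from single-end reads after cutadapt 1.15. They deposited the methylation fraction per tile after Trim Galore 0.3.3 and BSMAP 2.74 (RRBS tiles of 100 bases with at least 10 CpG readings, WGBS tiles of 200 bases, both on mm9), and fractions were turned into percent here. Peaks came from Bowtie2 2.2.4 and HOMER, with the deposited signal in normalized tags and the peak score of the authors. SAMtools and deepTools are also named in their processing notes. Hepatocytes came from collagenase perfusion, a Percoll gradient and sorting. Of 85 table columns 49 could not be assigned to 1 sample group and were not used. RRBS columns of injected mice carry animal numbers and were assigned through the expression columns with the same numbers. The newborn WGBS column was assigned by elimination.

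Expression was tested as log2(FPKM + 1) with limma 3.58.1 in R 4.3.3, with 1 fit over all 18 libraries, a filter of 1 FPKM mean in 1 condition and Benjamini-Hochberg adjusted p under 0.05 over 11166 genes. RRBS percent was tested with limma over all tiles. The scripts were tested on simulated data. Read counts were not used here. Low FPKM values lay within 0.1 of whole multiples of 1 read for 71.2% to 80.9% of values, which was not enough for a count test. Nothing says which libraries came from separate litters, so p-values measure the spread between these libraries. WGBS, H3K27ac, H3K4me1 and 5hmC have 1 library per condition and no test. Peaks were called by library and counted as shared with an overlap of at least 1 base. The genes and lists were chosen with earlier results of these data known. The text names the 8 genes, for each list up to 4 genes past the threshold with the largest change, the 3 most alike genes of Afp, Gpc3 and Cd24a, and for each gene the tiles with the largest differences and the peaks of highest score or of 1 genotype. Genes beyond these, and Igf2, were named to account for a count. Alternatives were another pseudocount, other filters, quantile normalization, a fit of the compared conditions alone, each library left out, other point limits, flanks and peak scores. Some genes, the promoter motifs and a tile covered by these rules are not reported here.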

Additional observations from a re-analysis of the deposited data

Results flagged for a closer look

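For 8 genes outside the 8 followed here, in the lists or targeted, the effect of the deletion at 1 day minus that at 3 weeks passed the limma test of the difference itself (log2 scale). H19 had a difference of 1.83 (SE 0.26, adjusted p = 0.00389), past the threshold in all 15 alternatives. The others were Meg3 at 2.70 (adjusted p = 0.0405, past it in 7 of 15), Peg3 at 1.63 (0.043, 6 of 15), Myc at 4.57 (0.0223, 13 of 15), Lpl at 2.08 (0.0348, 7 of 15), Cebpb at -1.30 (0.0223, 13 of 15), Gpc1 at -1.81 (0.0251, 10 of 15) and Tet2 at 1.42 (0.0337, 8 of 15). For all of these but H19, leaving out replicate 3 of the controls of 1 day ended the call (adjusted p of 0.0541 to 0.105). Likewise leaving out replicate 2 of the DKO of 3 weeks, which leaves 1 library assumed to vary like the other groups, ended the call, with adjusted p of 0.0958 to 0.248. In the controls of 3 weeks, Meg3 was at 2.77, 4.44 and 18.3 FPKM and Myc at 10.5, 33.4 and 14.4, and replicate 3 is the library with Xist. Without it Peg3 (1.30, adjusted p = 0.0604) and Tet2 (1.33, adjusted p = 0.0501) no longer passed. Leaving out other single libraries ended the call of Peg3, Lpl, Gpc1, Tet2 or Meg3, with differences of 1.5 to 1.79, 1.84 to 2.13, -1.88 to -1.78, 1.30 to 1.45 and 2.75 to 2.87.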

How the results depend on the processing

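Of 1094 recomputed values none reversed, 971 kept their call or count, 102 lost and 9 gained the threshold, and 12 counts moved by over 1.5 times. At 1 day, 3 of the 8 genes passed with a pseudocount of 0.1 FPKM instead of 1 gene, 2 after quantile normalization and 2 in a fit of the compared conditions alone. Leaving out 1 library gave 1 to 2 genes at 1 day, 0 to 1 at 3 weeks, 5 to 6 for 3 against 15 weeks, and 2 to 3 and 1 to 2 RRBS tiles at 1 day and 3 weeks. Without replicate 1 of the DKO of 3 weeks 2 tiles passed. The test between the times of deletion gave 1 gene after quantile normalization. Tiles at least 35 points lower in the adult numbered 347 with 25 points and 139 with 50 points instead of 228. With the top 50% of peak scores ATAC regions fell to 26, those of 1 genotype to 4 from 11, and HNF6 regions to 19. Over all genes, the fit of the compared conditions alone gave 369 higher and 970 lower at 1 day and 16 and 12 at 3 weeks, and no filter gave 75 and 53 between the times. No paired analysis was possible because the columns carry animal numbers and no replicate numbers shared between groups. FPKM below about 0.1 rests on a few reads, and the WGBS coverage of each tile is unknown.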
